A study of Rattus norvegicus with 12 samples.

Results

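Gene expression after 12 h of angiotensin II (Ang II) was compared with that of untreated cells in vascular smooth muscle cells, the muscle cells of the vessel wall, cultured from the aortas of rats of the Sprague-Dawley stock. The comparison uses 6 of the 12 Affymetrix Rat Gene 1.0 ST arrays of the study, 3 titled as 12 h of Ang II and 3 titled as 0 h without it, and it covers 14506 genes, each read by 1 probe set. The other 6 arrays, 3 each for 6 h and 24 h of Ang II, gave a shared estimate of the spread and served to show where 12 h stood apart. By their labels all groups were cells of the same kind, described as differentiated, with no genetic change named. They were grown with 10% fetal bovine serum and then kept without serum for 48 h, and the treated groups received 100 nM Ang II. Total RNA was extracted with Trizol, and 100 ng of it was labelled with biotin. The labels disagree on the hours: a protocol text speaks of 1, 3 or 24 h, while titles and design speak of 6, 12 and 24 h, which are used here. The arrays of a group are called biological replicates, but no label ties them to different animals or dishes, so p-values here reflect only how much these arrays vary, which may be technical. Untreated cells kept 12 h longer were not analysed here, and Ang II and 12 h more in serum-free culture cannot be told apart.

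Ang II is the effector peptide of the renin-angiotensin system. In smooth muscle cells it acts mainly through the type 1 receptor, which couples to the Gq protein, releases calcium from stores, activates MAP kinases and transactivates growth factor receptors. The first genes to respond are the immediate-early transcription factors, which need no new protein for their induction and are known for a short burst followed by a return. Later layers of the response include growth, matrix and protease genes, changes in the contractile state and a lowering of the receptor's own messenger RNA.

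The arrays were alike within each group. The correlation across genes was 0.9975 to 0.9984 for the 6 pairs within a group and 0.9911 to 0.992 for the 9 pairs of an untreated with a 12 h array, over genes that are not independent replicates. Values of different probe sets depend on the probes, so a rank among genes is only a rough guide to level. Of the smooth muscle markers 11 of 12 lay above the 80th percentile of all genes, and their summed level (2 to the power of the deposited value) was 96198 to 97779 in untreated cells and 100418 to 102834 at 12 h. Below the median of all genes lay 13 of 14 endothelial, 16 of 17 leukocyte, 10 of 10 adipocyte, 10 of 10 neural and 6 of 13 fibroblast markers, and 4 of the fibroblast markers lay above the 80th percentile. Summed levels of endothelial markers were 1610 to 1656 in untreated cells and 1615 to 1699 at 12 h, and those of leukocyte markers were 1485 to 1508 and 1522 to 1548. Fibroblast markers, several of which smooth muscle cells also make, went down from 21122 to 21538 to 18307 to 18833, and 7 of 13 fell. In such bulk RNA, fewer cells of a type and less RNA per cell cannot be told apart. Below, levels are compared between arrays and not between genes.

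Of the 14506 genes, 1932 (13.3%) were higher at 12 h than in untreated cells and 1923 (13.3%) were lower, by limma's moderated test with an adjusted p under 0.05. The median log2 change of all genes was 0.005. Most changes were small, since 3319 of the called genes (86.1%) differed by less than 1.5-fold. At least 1.5-fold higher were 285 genes (1.96%) and at least 1.5-fold lower 251 (1.73%), at least 2-fold 79 and 85, and at least 4-fold 12 and 11. For 5914 genes (40.8%) the 3 arrays of a group lay wholly on one side of the 3 arrays of the other. Below, changes are given on the log2 scale as 12 h minus untreated, with the standard error of the fit and n = 3 arrays per group, and "rose" and "fell" are used only for genes that passed. Among the 13581 probe sets with no gene name here, 507 were higher and 720 lower (9.03% in all). Counts of list members below stand beside 13.3% higher and 13.3% lower over all genes, and no list was tested against these shares.

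**Figure D1:**
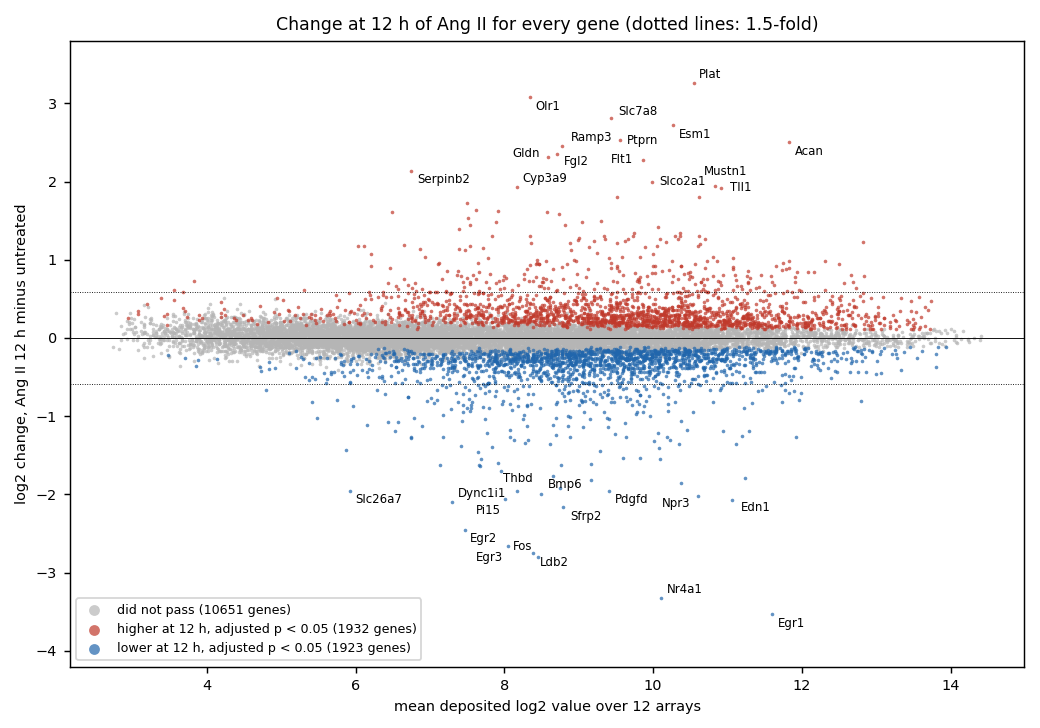
Every gene by its mean deposited log2 value over the 12 arrays (horizontal axis) and its log2 change at 12 h of Ang II against untreated cells (vertical axis). Red and blue points are the 1932 higher and 1923 lower genes, grey points did not pass, dotted lines mark 1.5-fold, and the 15 largest rises and falls are named, from Plat at 3.26 ± 0.07 to Egr1 at −3.53 ± 0.07.

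The largest rise was that of Plat, the gene of tissue plasminogen activator, a protease that frees plasmin for clot and matrix breakdown. Its log2 values were 8.18, 8.40 and 8.46 in untreated cells and 11.64, 11.62 and 11.56 at 12 h, a 9.58-fold rise (3.26 ± 0.07, limma adjusted p = 5.92e-11). Olr1, the gene of the receptor for oxidised low-density lipoprotein, stood at 6.36, 6.69 and 6.41 in untreated cells and 9.49, 9.56 and 9.63 at 12 h and rose 8.44-fold (3.08 ± 0.12, adjusted p = 9.85e-09). The gene of a transporter for large neutral amino acids, Slc7a8, stood at 7.90, 7.96 and 8.01 in untreated cells and 10.82, 10.71 and 10.78 at 12 h and rose 7.02-fold (2.81 ± 0.05, adjusted p = 2.11e-11). In these 3 genes every 12 h array was above every untreated array by far more than the spread of either group. Esm1, which encodes the secreted proteoglycan endocan, stood at 8.62, 8.70 and 8.64 in untreated cells and 11.45, 11.38 and 11.28 at 12 h (2.72 ± 0.07). Acan, the gene of the cartilage proteoglycan aggrecan, was at 10.10, 10.09 and 9.99 in untreated cells and 12.55, 12.58 and 12.56 at 12 h (2.50 ± 0.04), and its 12 h arrays were the closest together of the 15 leading rises. Flt1, which encodes a receptor for vascular endothelial growth factor, was at 8.44, 8.41 and 8.39 in untreated cells and 10.69, 10.76 and 10.63 at 12 h (2.28 ± 0.05).

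Ptprn, whose product sits in the membrane of dense-core vesicles, was at 7.84, 7.91 and 7.65 in untreated cells and 10.34, 10.37 and 10.28 at 12 h (2.53 ± 0.06). Ramp3, which encodes a partner of the calcitonin receptor-like receptor, was at 7.64, 7.27 and 7.40 in untreated cells and 9.92, 9.87 and 9.87 at 12 h (2.45 ± 0.12). Fgl2, the gene of a fibrinogen-like prothrombinase, was at 7.12, 7.17 and 6.64 in untreated cells and 9.21, 9.35 and 9.43 at 12 h (2.35 ± 0.12), with untreated replicate 3 lower than the other untreated arrays. Serpinb2, the gene of plasminogen activator inhibitor type 2, was at 5.57, 5.42 and 5.74 in untreated cells and 7.85, 7.52 and 7.78 at 12 h (2.14 ± 0.19), the widest standard error among the leading rises. The leading rises and falls were picked among genes whose arrays did not overlap between the groups, so their lack of overlap was set by that choice. The leading rises also included Gldn, a secreted adhesion protein gene (2.31 ± 0.10), the prostaglandin transporter gene Slco2a1 (2.00 ± 0.07), Mustn1 (1.94 ± 0.06), the cytochrome P450 gene Cyp3a9 (1.93 ± 0.07) and the procollagen protease gene Tll1 (1.92 ± 0.04).

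Of the 15 largest falls 5 were those of immediate-early factor genes. Egr1, which encodes a zinc finger factor induced by serum and by many receptors, had log2 values of 13.57, 13.51 and 13.56 in untreated cells and 9.87, 10.14 and 10.06 at 12 h, a 11.5-fold fall (−3.53 ± 0.07, limma adjusted p = 2.11e-11). Nr4a1, the gene of an orphan nuclear receptor, was at 12.05, 11.73 and 12.02 in untreated cells and 8.46, 8.58 and 8.79 at 12 h and fell 10.0-fold (−3.33 ± 0.11, adjusted p = 1.79e-09). Fos, which encodes a subunit of the AP-1 factor, was at 10.41, 10.01 and 10.46 in untreated cells and 7.39, 7.54 and 7.55 at 12 h and fell 6.99-fold (−2.80 ± 0.10, adjusted p = 3.36e-09). All 3 genes were far dimmer at 12 h than in untreated serum-free cells. Egr3 was at 9.69, 9.71 and 9.98 in untreated cells and 7.04, 7.20 and 7.16 at 12 h (−2.66 ± 0.09) and Egr2 at 9.28, 9.00 and 9.12 in untreated cells and 6.77, 6.63 and 6.64 at 12 h (−2.45 ± 0.08). Ldb2, the gene of a LIM domain-binding cofactor, was at 10.33, 10.22 and 10.31 in untreated cells and 7.32, 7.70 and 7.61 at 12 h (−2.75 ± 0.13). Edn1, which encodes the precursor of the constrictor peptide endothelin-1, was at 12.58, 12.36 and 12.53 in untreated cells and 10.41, 10.41 and 10.43 at 12 h (−2.07 ± 0.07), and its 3 arrays at 12 h lay within 0.02 of each other. The remaining leading falls were those of the Wnt modulator gene Sfrp2 (−2.16 ± 0.08), the dynein gene Dync1i1 (−2.10 ± 0.09), the peptidase inhibitor gene Pi15 (−2.06 ± 0.13), the natriuretic peptide clearance receptor gene Npr3 (−2.02 ± 0.08), Bmp6 (−1.99 ± 0.07), the thrombomodulin gene Thbd (−1.95 ± 0.06), the anion transporter gene Slc26a7 (−1.95 ± 0.10) and the growth factor gene Pdgfd (−1.95 ± 0.08).

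**Figure D2:**
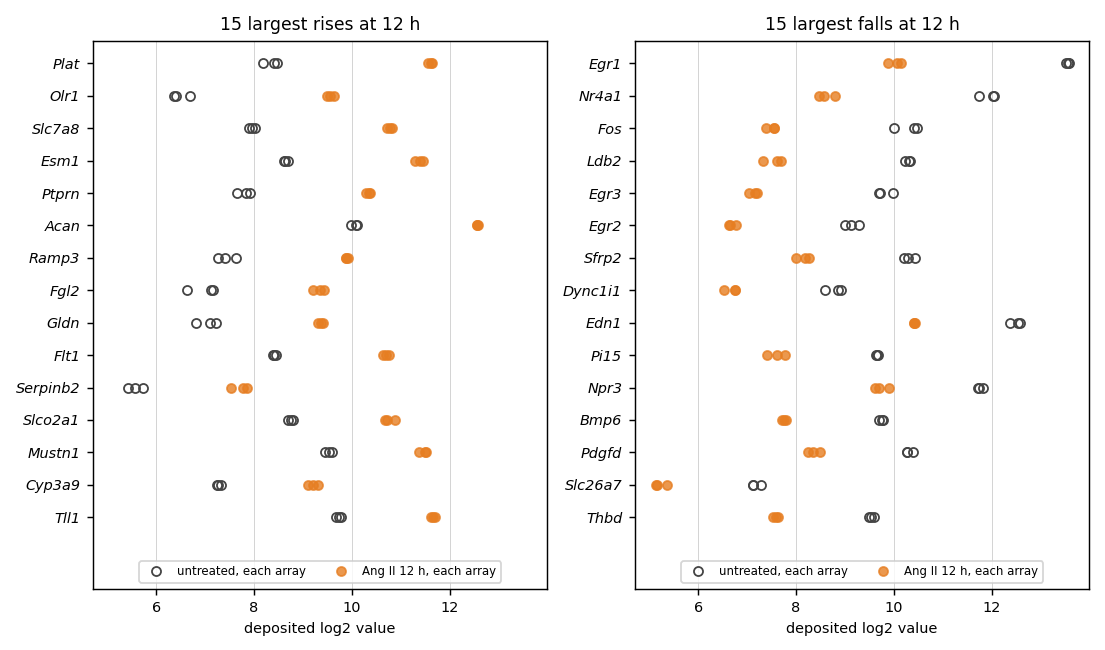
Deposited log2 value of each untreated array (open circles) and each 12 h array (filled circles) for the 15 genes that rose most and the 15 that fell most. All 30 genes were picked among those whose 3 arrays of a group lie wholly to one side of the 3 arrays of the other. Plat runs from 8.18 to 8.46 against 11.56 to 11.64 and Egr1 from 13.51 to 13.57 against 9.87 to 10.14.

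As a list, the immediate-early factors were the lowest group at 12 h: 2 of 28 measured genes rose and 17 fell, with a median of −0.89. The rises were 1 in place of 2 without 12 h replicate 2 or without untreated replicate 1. All 3 genes of the NR4A receptors fell, as did 3 of 6 genes of the EGR group with its corepressors, 5 of 10 AP-1 and related genes and 6 of 9 others. Ier2, an immediate early response gene outside the EGR group, was at 9.75, 9.80 and 9.95 in untreated cells and 7.88, 8.07 and 8.24 at 12 h (−1.76 ± 0.13). Zfp36, whose product binds and destabilises messenger RNA, was at 11.61, 11.25 and 11.60 in untreated cells and 10.24, 10.25 and 10.39 at 12 h (−1.19 ± 0.08). Nr4a3 had a different course, at 9.98, 9.63 and 9.73 in untreated cells and 8.61, 8.70 and 8.76 at 12 h (−1.09 ± 0.08). Its 6 h arrays stood at 10.81, 10.85 and 10.89, above the untreated ones, so that the difference of 12 h from 6 h was −2.16 ± 0.08. Of the AP-1 genes that did not pass, Fosl2 had a change of −0.04 ± 0.04 (adjusted p = 0.557) and Mafk of 0.00 ± 0.05 (adjusted p = 0.982).

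Promoter sequences are shown for 3 of these genes because serum response elements of the CArG type and cAMP response elements are the known entry points for such stimuli. RefSeq's table for the rat assembly GRCr8 held a promoter for 11970 of the 14506 genes, and matches were sought on both strands in the 250 bases before the annotated start. A CArG box stood in the promoters of 4 of 19 immediate-early genes (Egr1, Egr2, Zfp36 and Srf), against 1.18% of all promoters. The short cAMP response element TGACG stood in 13 of 19, against 23.3%, and its full form TGACGTCA, which contains the short one, in 3 of 19, against 2.28%. The AP-1 letters TGACTCA stood in 0 of 19, against 3.43%, and the EGR letters GCGTGGGCG in 3 of 19, against 0.769%. Capitals mark CArG boxes and TGACG on either strand, the latter written CGTCA where it lies on the other strand. In Egr2 (chr20:21054442-21054691, minus strand) the CArG box began at base −83 and the short element at base −66, counted back from the start. Zfp36 (chr1:92799109-92799358, minus strand) had the letters of a CArG box from base −32, close to the start, and no TGACG. A match describes letters only, and whether any of these stretches works as a response element was not tested. Nr4a1 (chr7:134259888-134260137, plus strand) had 4 short elements and no CArG box.
Egr2: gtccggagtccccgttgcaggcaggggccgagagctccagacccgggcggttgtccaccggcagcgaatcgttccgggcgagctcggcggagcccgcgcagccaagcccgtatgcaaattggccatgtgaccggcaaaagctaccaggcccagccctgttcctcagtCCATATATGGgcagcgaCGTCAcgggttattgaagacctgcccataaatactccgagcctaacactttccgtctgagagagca
Zfp36: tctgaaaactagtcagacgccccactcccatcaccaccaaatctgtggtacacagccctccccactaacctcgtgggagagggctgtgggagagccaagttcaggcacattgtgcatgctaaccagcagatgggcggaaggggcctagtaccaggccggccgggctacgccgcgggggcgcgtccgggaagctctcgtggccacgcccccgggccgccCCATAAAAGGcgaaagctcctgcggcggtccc
Nr4a1: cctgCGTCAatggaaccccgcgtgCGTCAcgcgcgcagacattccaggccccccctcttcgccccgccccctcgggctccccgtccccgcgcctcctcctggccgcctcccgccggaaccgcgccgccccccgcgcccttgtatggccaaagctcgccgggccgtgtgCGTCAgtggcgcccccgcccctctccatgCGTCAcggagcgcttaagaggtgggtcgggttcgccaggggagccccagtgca

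The Krüppel-like factors, zinc finger factors that set smooth muscle and endothelial state, counted 6 of 13 genes down and 3 up (median −0.20). Klf4, known as a repressor of contractile genes, was at 10.92, 10.85 and 10.97 in untreated cells and 9.34, 9.34 and 9.44 at 12 h (−1.54 ± 0.07). Klf2 fell as well (−1.11 ± 0.08), while Klf10 (0.52 ± 0.05) and Klf12 (0.46 ± 0.09) rose. Of the genes that restrain MAP kinase signalling, 10 of 23 fell and 4 rose (median −0.02). Dusp5, a phosphatase of nuclear ERK, was at 9.85, 9.78 and 9.88 in untreated cells and 8.51, 8.27 and 8.40 at 12 h (−1.44 ± 0.07). Dusp1 (−0.80 ± 0.05), the EGF receptor inhibitor gene Errfi1 (−0.62 ± 0.06), Spry1 (−0.54 ± 0.06) and Spry4 (−0.51 ± 0.07) fell, and the ERK phosphatase gene Dusp7 had a change of 0.10 ± 0.04 (adjusted p = 0.0922).

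Of the Ang II receptor genes, Agtr1a, the main type 1 receptor gene of rodent vessels, stood at 11.75, 11.80 and 11.80 in untreated cells and 9.91, 9.91 and 9.97 at 12 h and fell 3.61-fold. It fell by 1.85 ± 0.06 on the log2 scale (adjusted p = 1.55e-09). The second type 1 receptor gene, Agtr1b, stood at 5.99, 6.20 and 6.23 in untreated cells and 6.52, 6.56 and 6.44 at 12 h and rose slightly (0.36 ± 0.08, limma adjusted p = 0.00577). The mean of Agtr1b over the 12 arrays was low, at the 25.9th percentile of all genes by this rough rank. The type 2 receptor gene Agtr2, at 6.26, 6.05 and 6.06 in untreated cells and 6.13, 5.94 and 6.11 at 12 h, had a change of −0.07 ± 0.13 (adjusted p = 0.779), and its groups overlapped. Of the peptidases that make or cut angiotensins, aminopeptidase N (Anpep, −0.58 ± 0.05) and neprilysin (Mme, −0.32 ± 0.07) fell, and Prcp (0.22 ± 0.05), a carboxypeptidase of Ang II, rose. Over the whole angiotensin list 3 of 18 genes rose and 4 fell, shares near those of all genes. Of the regulators of G protein signalling 7 of 24 rose and 2 fell, or 1 lower without untreated replicate 1 or 12 h replicate 2. By role, 4 of 8 receptor kinase and arrestin genes rose and 1 fell. Of 16 RGS genes 3 rose (18.8%) and 1 fell (6.25%), against 13.3% each over all genes. Rgs17 (0.87 ± 0.05) and the receptor kinase gene Grk5 (0.78 ± 0.06) led the rises, whereas Rgs4, a regulator of Gq signalling in muscle, had a change of −0.14 ± 0.10 (adjusted p = 0.396).

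Peptide systems that set vessel tone changed in both directions, with 9 of 38 genes higher and 9 lower. In the endothelin system Edn1 fell while the endothelin-converting enzyme gene Ece1 was at 10.50, 10.50 and 10.54 in untreated cells and 11.40, 11.42 and 11.36 at 12 h and rose (0.88 ± 0.04). In the adrenomedullin system the peptide gene Adm fell (−0.88 ± 0.07). The receptor gene Calcrl, at 6.04, 5.76 and 5.73 in untreated cells and 6.90, 6.74 and 7.10 at 12 h, rose (1.07 ± 0.11) together with its partner Ramp3, while the partner Ramp1 had a change of 0.17 ± 0.07 (adjusted p = 0.077). Adra1b, the gene of an alpha-adrenergic receptor that constricts vessels, was at 8.87, 8.83 and 8.60 in untreated cells and 6.97, 7.32 and 7.36 at 12 h (−1.55 ± 0.10). The guanylyl cyclase gene Gucy1a1, whose product senses nitric oxide, had a change of −0.04 ± 0.05 (adjusted p = 0.605). Prostanoid genes also changed both ways. The phospholipase gene Pla2g4a, at 9.23, 9.19 and 9.31 in untreated cells and 10.62, 10.66 and 10.70 at 12 h, rose (1.42 ± 0.05), as did Ptgs1 (0.73 ± 0.05) and the prostacyclin synthase gene Ptgis (0.48 ± 0.04). The inducible cyclooxygenase gene Ptgs2, at 11.86, 11.65 and 11.93 in untreated cells and 10.60, 10.61 and 10.66 at 12 h, fell (−1.19 ± 0.07), as did Ptges (−0.63 ± 0.10). Over the prostanoid list 4 of 17 genes rose and 4 fell.

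Genes of growth factors were more often lower than higher at 12 h. Of the ligands, 15 of 38 fell and 6 rose (median −0.11), and of the receptors and binding proteins 13 of 30 fell and 5 rose. Ereg, the gene of the EGF receptor ligand epiregulin, was at 11.06, 11.15 and 11.13 in untreated cells and 9.60, 9.79 and 9.71 at 12 h (−1.41 ± 0.08). Neuregulin (Nrg1, −1.36 ± 0.06), Fgf16 (−1.35 ± 0.10) and Fgf13 (−1.26 ± 0.07) fell as well. Igf1, at 6.59, 6.79 and 6.76 in untreated cells and 8.20, 8.08 and 8.17 at 12 h, went the other way and rose 2.71-fold (1.44 ± 0.09). Among receptors, Pdgfra (−1.24 ± 0.06), the semaphorin and VEGF co-receptor gene Nrp1 (−1.0 ± 0.06), the hepatocyte growth factor receptor gene Met (−0.95 ± 0.06), Ntrk3 (−0.62 ± 0.08) and Tek (−0.58 ± 0.09) fell, and Flt1 was the leading rise. Pdgfra and Tek also serve as fibroblast and endothelial markers, and the part of other cell types in these changes was not tested. Among 14 endothelial markers 2 were higher and 2 lower, or 0 to 2 and 1 to 2 where 1 array was left out.

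Enzymes of cholesterol synthesis rose almost throughout the pathway. Of 21 genes in the list 18 were measured, and the other 3 were not analysed here. Of the 18, 17 rose and 0 fell, with a median of 0.56 against 0.005 for all genes. At an unadjusted p under 0.05 in limma, or with no moderation of the variance, the falls were also 0. The rises took in 7 of 8 genes on the way to squalene and 10 of 10 after it. Acat2, whose product joins acetyl-CoA units at the first step, was at 11.24, 11.33 and 11.30 in untreated cells and 12.09, 12.07 and 12.06 at 12 h (0.79 ± 0.05). Mvd, at 9.10, 9.20 and 9.20 in untreated cells and 10.00, 9.79 and 9.90 at 12 h (0.73 ± 0.06), and Idi1, at 11.03, 10.86 and 10.94 in untreated cells and 11.60, 11.65 and 11.67 at 12 h (0.70 ± 0.05), encode enzymes that make the isoprene units. Lss, the gene of the enzyme that closes the sterol rings, was at 10.91, 10.94 and 11.00 in untreated cells and 11.67, 11.61 and 11.60 at 12 h (0.67 ± 0.05). Nsdhl, at 11.70, 11.76 and 11.80 in untreated cells and 12.64, 12.57 and 12.59 at 12 h (0.84 ± 0.04), and Hsd17b7, at 10.21, 10.22 and 10.31 in untreated cells and 11.18, 11.09 and 11.15 at 12 h (0.89 ± 0.05), act on the way from lanosterol to cholesterol. These 6 genes were picked for the size of their change. In all 18 measured genes the 3 arrays of a group lay wholly on one side of the other 3, against 40.8% of all genes. The only enzyme gene that did not pass was Ggps1, which makes a prenyl donor on a side branch and had a change of −0.15 ± 0.10 (adjusted p = 0.339).

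The remaining 11 measured enzymes, given although outside the rule for named genes, rose by 0.20 ± 0.05 (Mvk), 0.45 ± 0.07 (Pmvk), 0.31 ± 0.06 (Fdps), 0.34 ± 0.04 (Fdft1) and 0.61 ± 0.05 (Sqle). Further along they rose by 0.39 ± 0.04 (Cyp51), 0.45 ± 0.04 (Tm7sf2), 0.54 ± 0.04 (Msmo1), 0.59 ± 0.05 (Ebp), 0.54 ± 0.04 (Sc5d) and 0.58 ± 0.06 (Dhcr7). Genes that regulate and carry sterols followed in part, with 9 of 18 higher and 2 lower. The high-density lipoprotein receptor gene Scarb1 (0.54 ± 0.05), the lysosomal cholesterol exporter gene Npc1 (0.40 ± 0.06) and Olr1 rose. Abca1, the gene of the exporter of cell cholesterol, was at 7.99, 8.01 and 8.03 in untreated cells and 7.28, 7.33 and 7.08 at 12 h and fell (−0.78 ± 0.08), as did the fatty acid and lipoprotein receptor gene Cd36 (−0.58 ± 0.08). The lipoprotein receptor gene Vldlr had a change of −0.05 ± 0.04 (adjusted p = 0.401).

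Of the fatty acid synthesis genes 14 of 27 rose and 1 fell (median 0.13), or 2 lower without 12 h replicate 2. Acly, which supplies cytosolic acetyl-CoA, was at 10.83, 10.93 and 10.93 in untreated cells and 11.46, 11.58 and 11.47 at 12 h (0.61 ± 0.05). Fasn, the fatty acid synthase gene, was at 11.46, 11.50 and 11.52 in untreated cells and 12.08, 12.08 and 12.03 at 12 h (0.57 ± 0.04). The desaturase genes Scd (0.62 ± 0.06), Fads1 (0.81 ± 0.04) and Fads2 (0.59 ± 0.04) and the acyl-CoA ligase gene Acsl4 (0.56 ± 0.04) rose. The elongase gene Elovl5 had a change of 0.05 ± 0.04 (adjusted p = 0.458) and the ligase gene Acsl5 of 0.00 ± 0.04 (adjusted p = 0.981), so that the rise did not extend to every enzyme.

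**Figure D3:**
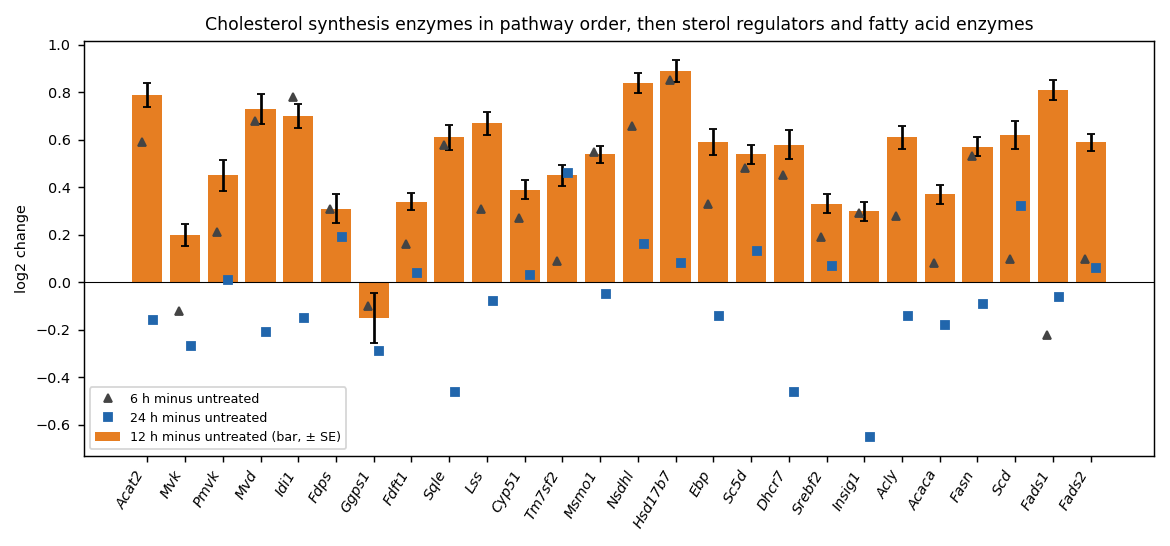
Log2 change against untreated cells for the 18 measured cholesterol synthesis enzymes in pathway order, then sterol regulators and fatty acid enzymes. Bars are 12 h with the standard error of the fit (n = 3 arrays per group), triangles 6 h and squares 24 h. The 17 cholesterol enzymes other than Ggps1 lie above 0 at 12 h, up to 0.89 ± 0.05 for Hsd17b7. Of the 18, 15 were higher at 12 h than at 24 h and 8 higher than at 6 h.

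Promoters of the leading sterol enzymes, Nsdhl and Hsd17b7, are shown for their CCAAT boxes, the letters bound by nuclear factor Y, a known partner of the sterol factor SREBP. CCAAT stood on either strand in 12 of 15 cholesterol synthesis promoters (80%), against 35.6% of all promoters. The letters CACCCCAC, part of a known sterol regulatory element, stood in 1 of 15 (Ebp), against 2.09%. In Nsdhl (GRCr8, chrX:155817110-155817359, plus strand) the 250 bases before the start hold 5 CCAAT boxes, and in Hsd17b7 (chr13:84722755-84723004, minus strand) 3. Capitals mark CCAAT, written ATTGG where it lies on the other strand. A match describes these letters only.
Nsdhl: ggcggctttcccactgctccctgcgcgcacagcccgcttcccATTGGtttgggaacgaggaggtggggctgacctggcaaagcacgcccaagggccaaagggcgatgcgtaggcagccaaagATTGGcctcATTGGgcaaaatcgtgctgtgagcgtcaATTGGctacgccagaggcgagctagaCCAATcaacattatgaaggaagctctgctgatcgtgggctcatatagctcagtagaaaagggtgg
Hsd17b7: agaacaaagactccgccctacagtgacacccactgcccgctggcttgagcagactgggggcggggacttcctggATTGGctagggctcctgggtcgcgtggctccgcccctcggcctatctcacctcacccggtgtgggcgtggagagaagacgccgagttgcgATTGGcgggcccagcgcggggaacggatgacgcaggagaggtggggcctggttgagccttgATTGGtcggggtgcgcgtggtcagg

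Chaperones of the endoplasmic reticulum, where secreted proteins fold, were higher at 12 h. Of the folding list 19 of 35 genes rose and 5 fell (median 0.13), and of its chaperones 16 of 22 rose and 1 fell. The falls were 3 in place of 5 without untreated replicate 1, 12 h replicate 1 or 12 h replicate 2. Atf6, the gene of a stress sensor that is itself a transcription factor, was at 10.33, 10.28 and 10.28 in untreated cells and 11.25, 11.30 and 11.28 at 12 h and rose 1.97-fold (0.98 ± 0.04). Creld2 (0.52 ± 0.06), Sdf2l1 (0.51 ± 0.04) and Hyou1 (0.44 ± 0.05) rose, while Canx, the calnexin gene, had a change of 0.09 ± 0.04 (adjusted p = 0.104). Stress and degradation genes went the other way in part, since Trib3 (−0.74 ± 0.05) and Herpud1 (−0.52 ± 0.07) fell. The stress element letters CCACG stood in 21 of 28 promoters of the list, against 34.4% of all promoters. In the translocon and vesicle coat list, 6 of 50 rose and 3 fell, shares no higher than those of all genes. That count of 6 became 3 without 12 h replicate 2 or without 12 h replicate 3. Creb3 (0.38 ± 0.04), a membrane-bound factor of the secretory pathway, was its largest rise.

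Of the proteasome genes, 18 of 37 rose and 0 fell, all by small amounts (median 0.13), and 11 rose when untreated replicate 1 was left out. At an unadjusted p under 0.05 in limma 2 fell, and without moderation 0. Psmc3, an ATPase of the cap, was at 9.79, 9.84 and 9.74 in untreated cells and 10.23, 10.21 and 10.27 at 12 h (0.44 ± 0.04), and the lid gene Psmd14 rose by 0.35 ± 0.06. Core subunits Psmb2 and Psmb5 had changes of 0.00 ± 0.04 (adjusted p = 0.996) and 0.00 ± 0.04 (adjusted p = 0.968). Heat shock genes were mixed, with 11 of 36 higher and 8 lower. Hspa2 was at 8.07, 8.20 and 8.15 in untreated cells and 9.28, 9.24 and 9.28 at 12 h (1.13 ± 0.06), and the small heat shock genes Hspb6 (0.92 ± 0.07), Hspb8 (0.64 ± 0.06) and Hspb1 (0.57 ± 0.05) rose. Hspa8, the constitutive chaperone gene, had a change of −0.08 ± 0.04 (adjusted p = 0.151).

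Genes under the amino acid stress factor ATF4 were lower as a list, with 18 of 43 down and 6 up (median −0.10). Slc38a4, an amino acid transporter gene, was at 8.73, 8.72 and 8.57 in untreated cells and 7.43, 7.43 and 7.50 at 12 h (−1.22 ± 0.06). The glutathione-degrading enzyme gene Chac1 was at 10.30, 10.12 and 10.36 in untreated cells and 9.24, 9.42 and 9.30 at 12 h (−0.94 ± 0.07). The transporter genes Slc7a11 (−0.50 ± 0.06), Slc7a5 (−0.50 ± 0.04) and Slc1a5 (−0.49 ± 0.05) fell. Slc7a8, a member of the list, and the cationic amino acid transporter gene Slc7a3 (1.31 ± 0.06) rose, and the asparagine synthetase gene Asns had a change of 0.12 ± 0.04 (adjusted p = 0.0571). Ribosome biogenesis genes, which make and assemble ribosomes in the nucleolus, gave 18 of 50 lower and 0 higher (median −0.14), and at an unadjusted p under 0.05, or without limma's moderation, 0 were higher as well. Gnl3, the nucleostemin gene, was at 9.48, 9.41 and 9.43 in untreated cells and 8.86, 8.81 and 8.85 at 12 h (−0.60 ± 0.06), and Nob1 (−0.55 ± 0.04), Nop56 (−0.44 ± 0.04) and Npm1 (−0.44 ± 0.05) fell.

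The list of glycolysis and hypoxia genes held 20 rises and 7 falls among 39 genes (median 0.17). By role, 11 of 19 glycolysis genes rose and 3 fell, while 5 of 16 hypoxia-responsive genes rose and 4 fell (median 0.03). Slc16a3, the lactate exporter gene, was at 9.91, 9.91 and 9.97 in untreated cells and 11.18, 11.06 and 11.12 at 12 h and rose 2.29-fold (1.20 ± 0.04). Of the phosphofructokinase isoform genes, Pfkp, at 8.25, 8.34 and 8.29 in untreated cells and 9.11, 9.29 and 9.22 at 12 h, rose (0.91 ± 0.07), as did Pfkl (0.24 ± 0.05), added after its value was seen, and Pfkm, at 8.88, 8.99 and 8.93 in untreated cells and 8.39, 8.55 and 8.57 at 12 h, fell (−0.43 ± 0.07). Tpi1 (0.46 ± 0.04) rose, Gapdh had a change of 0.09 ± 0.04 (adjusted p = 0.0975), and the oxygen sensor gene Egln3 fell (−0.95 ± 0.06). All 4 sugar and lactate transporter genes measured rose. Oxidative phosphorylation genes moved little, with 3 of 48 higher and 1 lower, under the share among all genes, and 5 were higher without untreated replicate 2. Its 1 fall was absent without untreated replicate 1, 12 h replicate 1 or 12 h replicate 2. The highest was Cycs, the cytochrome c gene (0.19 ± 0.04). In the list of FoxO targets and starvation genes 11 of 23 fell and 3 rose. Sesn3, the gene of a nutrient sensor, was at 10.60, 10.55 and 10.56 in untreated cells and 9.82, 9.80 and 9.83 at 12 h (−0.75 ± 0.06), Pdk4, which restrains glucose oxidation, fell (−0.50 ± 0.08), and Txnip, which restrains glucose uptake, was at 11.27, 11.26 and 11.37 in untreated cells and 12.13, 12.13 and 12.17 at 12 h and rose (0.84 ± 0.05).

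Mitotic genes were lower almost without exception: 40 of 44 fell and 0 rose, with a median of −0.33. The rises were also 0 at an unadjusted p under 0.05 and with no moderation of limma's variance. Pttg1, the securin gene, was at 10.90, 10.86 and 10.88 in untreated cells and 10.02, 10.07 and 10.09 at 12 h (−0.82 ± 0.04), and Ccnb1, the gene of a mitotic cyclin, was at 10.16, 10.09 and 10.16 in untreated cells and 9.47, 9.47 and 9.56 at 12 h (−0.63 ± 0.06). Cdca3 (−0.53 ± 0.06), Hmmr (−0.52 ± 0.05), Cdc20 (−0.51 ± 0.06) and Ccna2 (−0.48 ± 0.07) fell, and Aurka had a change of −0.22 ± 0.11 (adjusted p = 0.186). Genes of the G1/S step and of DNA replication gave 7 of 39 lower (17.9%) and 4 higher (10.3%), with a median of −0.07. The share over all genes was 13.3% each. Cdc6, which loads the replicative helicase, was at 8.05, 8.18 and 8.17 in untreated cells and 8.53, 8.5 and 8.59 at 12 h and rose (0.41 ± 0.06), as did its partner Cdt1 (0.30 ± 0.08). Thymidine kinase (Tk1, −0.57 ± 0.05) and Rrm1 (−0.35 ± 0.05), which supply nucleotides, fell, and Pcna had a change of 0.13 ± 0.05 (adjusted p = 0.0661). The G1/S counts were unsteady, since 4 higher genes became 2 without untreated replicate 1 or 2 or without 12 h replicate 2 or 3, and 8 when array medians were subtracted. Of the cell cycle inhibitors, early cyclins and p53 targets, 7 of 23 rose and 5 fell. Plk3, a stress kinase gene, was at 9.89, 9.64 and 9.96 in untreated cells and 8.30, 8.18 and 8.18 at 12 h (−1.61 ± 0.09), Cdkn1b, the p27 gene, fell (−0.39 ± 0.04), and Cdk6 rose (0.35 ± 0.05). The death receptor gene Fas was at 11.16, 11.13 and 11.15 in untreated cells and 11.83, 11.84 and 11.92 at 12 h (0.72 ± 0.04).

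Contractile genes were higher by small steps: 12 of 27 rose and 1 fell (median 0.09). Des, the desmin gene, was at 9.16, 9.40 and 9.37 in untreated cells and 9.99, 9.92 and 9.92 at 12 h (0.63 ± 0.06). Vcl (0.36 ± 0.04), Pdlim7 (0.33 ± 0.04), Lmod1 (0.29 ± 0.04), Smtn (0.26 ± 0.04), Cnn1 (0.24 ± 0.04) and the coactivator gene Myocd (0.25 ± 0.04) rose. The smooth muscle myosin gene Myh11, at 12.94, 12.94 and 12.94 in untreated cells and 12.72, 12.79 and 12.81 at 12 h, was the fall (−0.17 ± 0.04). The bright genes Acta2 and Tagln did not pass, with changes of −0.03 ± 0.04 (adjusted p = 0.662) and 0.09 ± 0.04 (adjusted p = 0.124). All 12 smooth muscle markers are also in this list, and their summed level was higher in every 12 h array than in any untreated one. Without 12 h replicate 1 the falls were 2 in place of 1. They were also 2 with array weights, further quantile normalization, the replicate block or only genes above the median level. The same held with no moderation and with a trended robust variance.

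Calcium handling genes gave 12 of 42 higher and 6 lower. Cacna1c, which encodes the pore of the L-type calcium channel, was at 10.12, 10.07 and 10.05 in untreated cells and 9.11, 9.32 and 9.28 at 12 h (−0.84 ± 0.06). Over all channel genes of the list 6 of 21 rose and 3 fell. Trpc4, the gene of a cation channel of the TRPC family, was at 8.93, 8.97 and 8.97 in untreated cells and 10.01, 10.01 and 9.98 at 12 h (1.04 ± 0.05), and Trpc6 of the same family rose (0.70 ± 0.07). The store release channel gene Itpr1 rose (0.38 ± 0.06). Of the potassium channel genes 3 of 32 rose and 4 fell, a share like that of all genes. Kcnd3 was at 9.77, 9.73 and 9.74 in untreated cells and 8.07, 8.16 and 8.13 at 12 h (−1.63 ± 0.04), and the calcium-activated channel gene Kcnn4 was at 7.39, 7.69 and 7.41 in untreated cells and 8.62, 8.71 and 8.79 at 12 h (1.21 ± 0.09). Cyclic nucleotide genes were higher in 11 of 29 and lower in 5. Among the phosphodiesterases, which end cyclic nucleotide signals, Pde1a was at 9.48, 9.35 and 9.39 in untreated cells and 8.03, 8.00 and 8.17 at 12 h (−1.34 ± 0.07) and Pde3a at 9.59, 9.63 and 9.57 in untreated cells and 10.87, 10.90 and 10.93 at 12 h (1.30 ± 0.05). Pde4d rose (1.03 ± 0.06) while its relative Pde4b fell (−0.54 ± 0.06), and the cyclase gene Adcy3 rose (0.51 ± 0.05).

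Matrix genes changed one by one more than as a class. Of the collagen and matrix assembly genes 15 of 55 rose and 12 fell, and of the proteoglycan and hyaluronan genes 14 of 43 and 11. Lama5, a laminin chain gene, was at 9.28, 9.29 and 9.25 in untreated cells and 10.45, 10.43 and 10.47 at 12 h (1.18 ± 0.04). Loxl4, which crosslinks collagen, rose (0.99 ± 0.05), as did Postn (0.71 ± 0.04), while Col11a1 fell (−0.66 ± 0.05). Omd, a small leucine-rich proteoglycan gene, was at 8.97, 8.78 and 9.03 in untreated cells and 7.54, 7.47 and 7.61 at 12 h (−1.39 ± 0.09), and Lum (−0.56 ± 0.06) and Dcn (−0.39 ± 0.07) of the same family fell. The hyaluronan receptor gene Cd44 (0.79 ± 0.05) and Sdc4 (0.61 ± 0.05) rose, whereas Fn1 (−0.03 ± 0.04, adjusted p = 0.637), Sparc (0.01 ± 0.04, adjusted p = 0.913) and Bgn (−0.01 ± 0.04, adjusted p = 0.839) did not pass. Lum, Dcn and Col14a1 (−0.44 ± 0.04) are among the 7 fibroblast markers that fell, whose summed level was lower at 12 h, and the part of that cell type in the falls was not tested.

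Plasminogen, coagulation and matrix protease genes held 4 of the 30 leading genes, Plat, Fgl2, Serpinb2 and Thbd, and counted 14 of 53 higher and 13 lower. F2rl2, a thrombin receptor gene, was at 6.59, 6.61 and 6.58 in untreated cells and 8.47, 8.05 and 8.43 at 12 h (1.72 ± 0.11). Tfpi2, a protease inhibitor gene, was at 6.57, 6.26 and 6.32 in untreated cells and 7.94, 8.22 and 7.90 at 12 h (1.64 ± 0.12). Tissue factor (F3), which starts coagulation, had a change of 0.08 ± 0.04 (adjusted p = 0.176). Genes linked to calcification and cartilage gave 8 of 28 higher and 4 lower, or 2 lower without untreated replicate 1 or 3 or 12 h replicate 1. The rises were led by genes known as brakes on mineral: Mgp, at 9.38, 9.55 and 9.28 in untreated cells and 10.60, 10.73 and 10.67 at 12 h (1.27 ± 0.07), Enpp1, which makes pyrophosphate, at 11.91, 11.94 and 12.01 in untreated cells and 13.20, 13.16 and 13.19 at 12 h (1.23 ± 0.04), and Ankh (0.92 ± 0.05), which is needed for pyrophosphate outside the cell. The phosphate transporter gene Slc20a2 rose (0.72 ± 0.04), and Slc20a1 had a change of −0.02 ± 0.05 (adjusted p = 0.884).

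Integrin and adhesion genes were higher in 14 of 32 and lower in 4 (median 0.11). Itga5, the fibronectin receptor chain gene, was at 11.51, 11.56 and 11.58 in untreated cells and 12.54, 12.53 and 12.56 at 12 h (0.99 ± 0.04), and Itga7 (0.75 ± 0.05), Itga4 (0.70 ± 0.08), Mcam (0.68 ± 0.04) and the connexin gene Gja4 (1.02 ± 0.05) rose. Vcam1, which binds leukocytes, was at 10.39, 10.39 and 10.33 in untreated cells and 8.38, 8.56 and 8.71 at 12 h (−1.82 ± 0.10), the largest fall of the list. Axon guidance genes fell in 13 of 46 and rose in 8. Sema3a, a repulsive cue gene, was at 8.77, 8.63 and 8.72 in untreated cells and 7.19, 7.18 and 7.38 at 12 h (−1.46 ± 0.08), the receptor genes Epha3 (−1.12 ± 0.07) and Robo1 (1.27 ± 0.05) went opposite ways, and Efna5 fell (−0.89 ± 0.06).

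Cytokine and chemokine genes were split, with 12 of 69 higher and 14 lower (17.4% and 20.3%, against 13.3% each over all genes). Cxcl16, a chemokine and scavenger receptor gene, was at 9.57, 9.68 and 9.62 in untreated cells and 11.45, 11.45 and 11.39 at 12 h and rose 3.49-fold (1.80 ± 0.05). Ccl2, which recruits monocytes, was at 8.93, 8.98 and 9.00 in untreated cells and 9.83, 9.86 and 9.82 at 12 h (0.86 ± 0.06), while Il6 was at 8.72, 8.83 and 8.87 in untreated cells and 8.01, 8.12 and 8.25 at 12 h (−0.68 ± 0.10). The interleukin-33 receptor gene Il1rl1 (1.17 ± 0.07) and Osmr (0.71 ± 0.04) rose, and the chemokine scavenger gene Ackr3 fell (−1.25 ± 0.05). The NF-kappaB subunit gene Rela had a change of 0.00 ± 0.04 (adjusted p = 1.0). Of the 17 leukocyte markers 0 rose and 0 fell by limma, with 3 higher and 0 lower at an unadjusted p under 0.05, 0 of either without moderation, and 2 higher with array weights. Without untreated replicate 1, 1 was higher and 1 lower, and without 12 h replicate 1, 1 was higher. Interferon-responsive and antigen genes counted 11 of 48 higher and 6 lower. Cd74, the invariant chain gene, was at 8.05, 8.26 and 8.33 in untreated cells and 9.65, 9.74 and 9.77 at 12 h (1.5 ± 0.07). Usp18, at 5.12, 5.23 and 4.55 in untreated cells and 5.93, 6.06 and 6.43 at 12 h, rose with a wide error (1.17 ± 0.21), and Gbp5 fell (−0.87 ± 0.05).

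Redox genes were led by Nox1, the oxidase subunit gene known to respond to Ang II in these cells, at 5.62, 5.63 and 5.70 in untreated cells and 7.28, 7.21 and 7.29 at 12 h (1.61 ± 0.07), a 3.04-fold rise. The list counted 11 of 51 higher and 10 lower. Of the glutathione synthesis genes, Gss, the last step, was at 8.52, 8.5 and 8.51 in untreated cells and 9.59, 9.70 and 9.71 at 12 h (1.16 ± 0.06), while Gclc, the first, was at 11.80, 11.75 and 11.83 in untreated cells and 10.89, 11.01 and 10.98 at 12 h (−0.83 ± 0.05). Nqo1 (0.98 ± 0.04), Prdx5 (0.92 ± 0.08) and Gstp1 (0.72 ± 0.04) rose. Of the apoptosis genes 9 of 33 rose and 3 fell. Cflar, an inhibitor of death receptor signalling, was at 9.46, 9.39 and 9.43 in untreated cells and 10.32, 10.37 and 10.33 at 12 h (0.92 ± 0.04), Pmaip1 rose (0.56 ± 0.06), and Mcl1 had a change of −0.13 ± 0.06 (adjusted p = 0.164).

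Circadian clock genes were lower in 10 of 19 and higher in 4 (median −0.20). The activator gene Bmal1 was at 8.41, 8.40 and 8.42 in untreated cells and 9.13, 9.12 and 9.18 at 12 h (0.73 ± 0.07). Of its repressors, Per3 was at 9.43, 9.35 and 9.47 in untreated cells and 8.42, 8.33 and 8.47 at 12 h (−1.01 ± 0.05) and Bhlhe41 at 8.89, 8.81 and 8.89 in untreated cells and 7.70, 7.90 and 7.91 at 12 h (−1.03 ± 0.06). Per2 (−0.70 ± 0.05) and Per1 (−0.68 ± 0.06) fell too, but Bhlhe40, a repressor of the same kind as Bhlhe41, had a change of 0.10 ± 0.06 (adjusted p = 0.227). The output factor gene Dbp fell (−0.80 ± 0.06), as did Nr1d2 (−0.68 ± 0.07), and Clock had a change of 0.12 ± 0.05 (adjusted p = 0.0997). Since 12 h of culture also passed, clock time and Ang II cannot be told apart here. The E-box letters CACGTG stood in 3 of 16 promoters of the list, against 6.93% of all promoters, and the D-box letters TTATGTAA in 1 of 16 (Per2), against 0.71%. Of the nuclear receptor and retinoid genes 12 of 38 fell and 3 rose. Aldh1a2, which makes retinoic acid, was at 8.67, 8.75 and 9.01 in untreated cells and 7.44, 7.15 and 6.94 at 12 h (−1.63 ± 0.15), and the receptor genes Thrb (−0.95 ± 0.04), Nr3c2 (−0.50 ± 0.07) and Nr3c1 (−0.43 ± 0.05) fell.

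Of the TGF-beta and BMP genes 25 of 58 fell and 13 rose, by role 8 of 19 ligands down and 4 up, 1 of 11 receptors down and 3 up, 8 of 15 inhibitors down and 5 up, and 8 of 13 targets down and 1 up. Bmp3 fell (−1.32 ± 0.07) besides Bmp6, and the target gene Id1 was at 9.61, 9.70 and 9.66 in untreated cells and 8.30, 8.45 and 8.43 at 12 h (−1.26 ± 0.08). The secreted antagonist genes Fst, at 8.71, 8.93 and 8.82 in untreated cells and 10.03, 10.18 and 9.98 at 12 h (1.24 ± 0.07), Chrdl2 (1.14 ± 0.10) and Grem1 (0.86 ± 0.06) rose. Among Wnt genes 17 of 54 fell and 6 rose, with Rspo1 (−0.84 ± 0.06) and Wnt5a (−0.77 ± 0.08) lower and the matricellular gene Ccn4 at 10.19, 10.20 and 10.20 in untreated cells and 11.24, 11.25 and 11.19 at 12 h (1.03 ± 0.04). Notch genes counted 6 of 27 lower and 4 higher (22.2% and 14.8%, against 13.3% each over all genes), with the target Hes1 at 9.15, 9.07 and 9.13 in untreated cells and 7.86, 8.02 and 8.10 at 12 h (−1.12 ± 0.08), Hey2 falling (−0.47 ± 0.04) and Nrarp rising (0.33 ± 0.07). Without untreated replicate 3 the higher Notch genes were 2.

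Lysosome and autophagy genes rose and fell in equal number, 8 each of 48 (16.7%), near the 13.3% each over all genes. The acid lipase gene Lipa (0.38 ± 0.05) and Map1lc3a (0.49 ± 0.05) rose, and Ctsc fell (−0.47 ± 0.04). Of the dense-core vesicle genes 6 of 33 rose (18.2%), Ptprn the most, and 3 fell (9.09%), among them neuropeptide Y (Npy, −0.69 ± 0.06). Lipid mediator receptors gave 4 of 21 higher (19%) and 5 lower (23.8%). The lysophosphatidic acid receptor genes Lpar4, at 9.14, 9.21 and 9.25 in untreated cells and 7.76, 7.87 and 8.06 at 12 h (−1.30 ± 0.09), Lpar1 (−1.03 ± 0.07), Lpar3 (−0.70 ± 0.07) and Lpar6 (−0.58 ± 0.07) fell, as did Plpp3 (−1.36 ± 0.07), whose product degrades the ligand, while Plpp1 rose (0.48 ± 0.04).

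**Figure D4:**
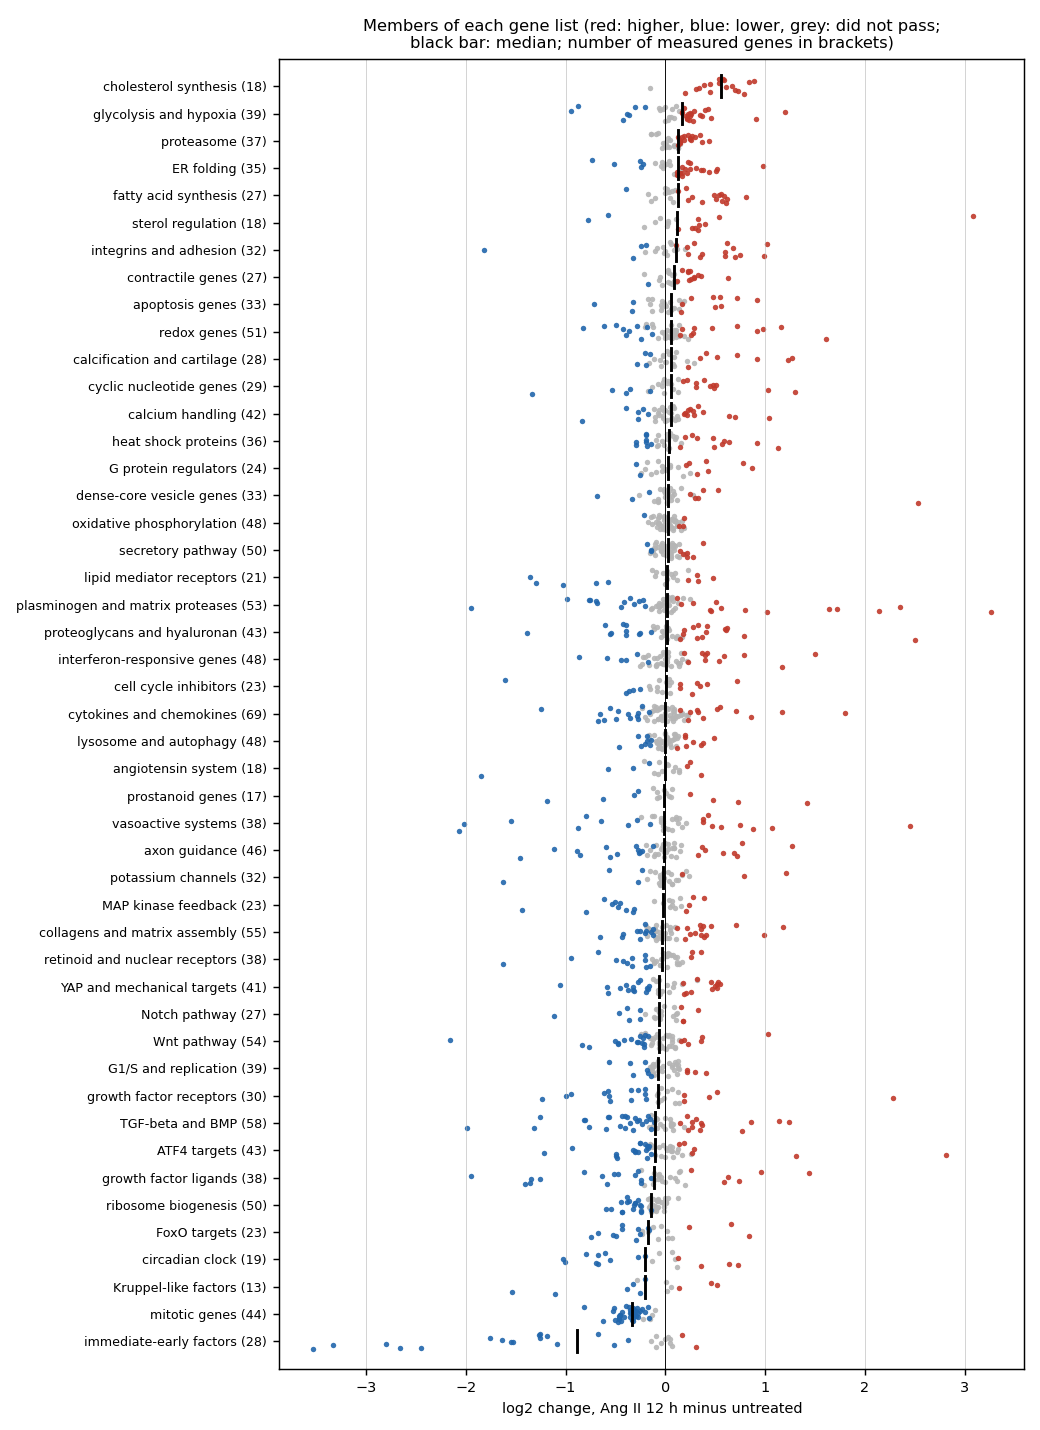
Log2 change at 12 h of Ang II against untreated cells for the measured members of 47 gene lists, 1 point per gene, ordered by the median (black bars). Red genes were higher, blue lower and grey did not pass. Cholesterol synthesis has the highest median at 0.56, and mitotic genes (−0.33) and immediate-early factors (−0.89) the lowest.

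Direct contrasts showed where 12 h differed from the neighbouring times. Against 6 h, 1894 genes were higher (13.1%) and 2016 lower (13.9%) at 12 h, and against 24 h 1955 were higher (13.5%) and 2028 lower (14%). Higher than in each of the other 3 groups, with all 3 contrasts passing, were 245 genes (1.69%), and lower than in each were 200 (1.38%). The comparisons of 6, 12 and 24 h with untreated cells share the same 3 untreated arrays. Relative to them, 225 genes passed in opposite directions at 12 h and 6 h, and 215 at 12 h and 24 h. The leading rises differed in this respect, with examples picked after their values were seen and 12 h minus 6 h in brackets. Fgl2 (−0.98), Esm1 (−0.25) and Flt1 (−0.21) passed as lower at 12 h than at 6 h. Cyp3a9 (1.15), Mustn1 (0.41) and Tll1 (0.18) passed as higher. The gene with the widest margin upwards was Cyp3a9, whose group means were 7.28 untreated, 8.06 at 6 h, 9.21 at 12 h and 8.14 at 24 h. Vsnl1, a neuronal calcium sensor gene, followed with 8.66 untreated, 9.54 at 6 h, 10.47 at 12 h and 9.42 at 24 h. Fads1 had means of 11.32 untreated, 11.10 at 6 h, 12.13 at 12 h and 11.26 at 24 h, so that it was above untreated cells at 12 h and below them at 6 h. Calcrl (5.84 untreated, 6.17 at 6 h, 6.91 at 12 h and 5.89 at 24 h), the cAMP-activated exchange factor gene Rapgef4 (7.22 untreated, 7.75 at 6 h, 8.37 at 12 h and 7.55 at 24 h) and Cd28 (6.23 untreated, 6.31 at 6 h, 7.42 at 12 h and 6.64 at 24 h) showed the same peak. By mean over the 12 arrays Calcrl and Cd28 were low, at the 23.7th and 31.5th percentiles of all genes by the rough rank. Ms4a14 and Ly49si1 complete the 8 of widest margin.

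Lipid synthesis and immediate-early lists held several genes with a peak or a trough at 12 h. Of the cholesterol synthesis genes 7 of 18 were highest at 12 h (Acat2, Mvk, Pmvk, Fdft1, Lss, Nsdhl and Ebp), of the fatty acid genes 8 of 27 (Acly, Acaca, Me1, Scd, Scd2, Elovl6, Fads1 and Fads2), and of the sterol regulators 3 of 18 (Srebf2, Insig2 and Lpin1). These names and those in the next sentences were listed after their values were seen. Against 24 h, 15 of 18 cholesterol genes were higher, with Mvd higher by 0.94 ± 0.06 and Acat2 by 0.95 ± 0.05. Against 6 h, 8 of 18 were higher and 0 lower. The median difference of the list was 0.12 from 6 h and 0.63 from 24 h. Of the immediate-early genes 7 of 28 were lowest at 12 h (Egr1, Nr4a1, Nr4a2, Nr4a3, Ier3, Zfp36 and Csrnp1). Egr1 had group means of 13.55 untreated, 12.26 at 6 h, 10.02 at 12 h and 10.59 at 24 h, and Nr4a1 of 11.94 untreated, 10.57 at 6 h, 8.61 at 12 h and 9.33 at 24 h. For Fos, Egr2 and Egr3 the differences of 12 h from 24 h were −0.10 ± 0.10, 0.00 ± 0.08 and −0.15 ± 0.09 and did not pass. Among ATF4 targets 6 of 43 were lowest at 12 h (Slc1a5, Slc7a5, Phgdh, Pycr1, Sars1 and Yars1), and Slc1a5 had means of 9.25 untreated, 9.59 at 6 h, 8.76 at 12 h and 9.24 at 24 h. Further troughs were those of Pdgfd (10.31 untreated, 9.14 at 6 h, 8.36 at 12 h and 9.84 at 24 h), Fgf13 (7.76 untreated, 7.09 at 6 h, 6.5 at 12 h and 7.33 at 24 h) and the microtubule protein gene Map2 (9.71 untreated, 8.55 at 6 h, 7.79 at 12 h and 8.94 at 24 h).

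Further lists differed between 12 h and a neighbouring time. Ribosome biogenesis genes were lower at 12 h than at 6 h in 44 of 50 and higher in 1. For Nop56 the difference from 6 h was −0.84 ± 0.04. G1/S and replication genes were higher at 12 h than at 24 h in 36 of 39, while mitotic genes were higher than at 24 h in 32 of 44 and higher than at 6 h in 20. Contractile genes were lower at 12 h than at 24 h in 17 of 27. Myh11 had group means of 12.94 untreated, 12.70 at 6 h, 12.77 at 12 h and 13.38 at 24 h, and Hspb6 had 10.92 untreated, 11.31 at 6 h, 11.84 at 12 h and 12.51 at 24 h. ER folding genes were higher at 12 h than at 24 h in 16 of 35 and lower in 5, while against 6 h 1 was higher and 8 lower. Agtr1a had group means of 11.79 untreated, 9.22 at 6 h, 9.93 at 12 h and 10.59 at 24 h, so that its level at 12 h was above that at 6 h (difference 0.72 ± 0.06) and below that at 24 h (−0.65 ± 0.06).

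**Figure D5:**
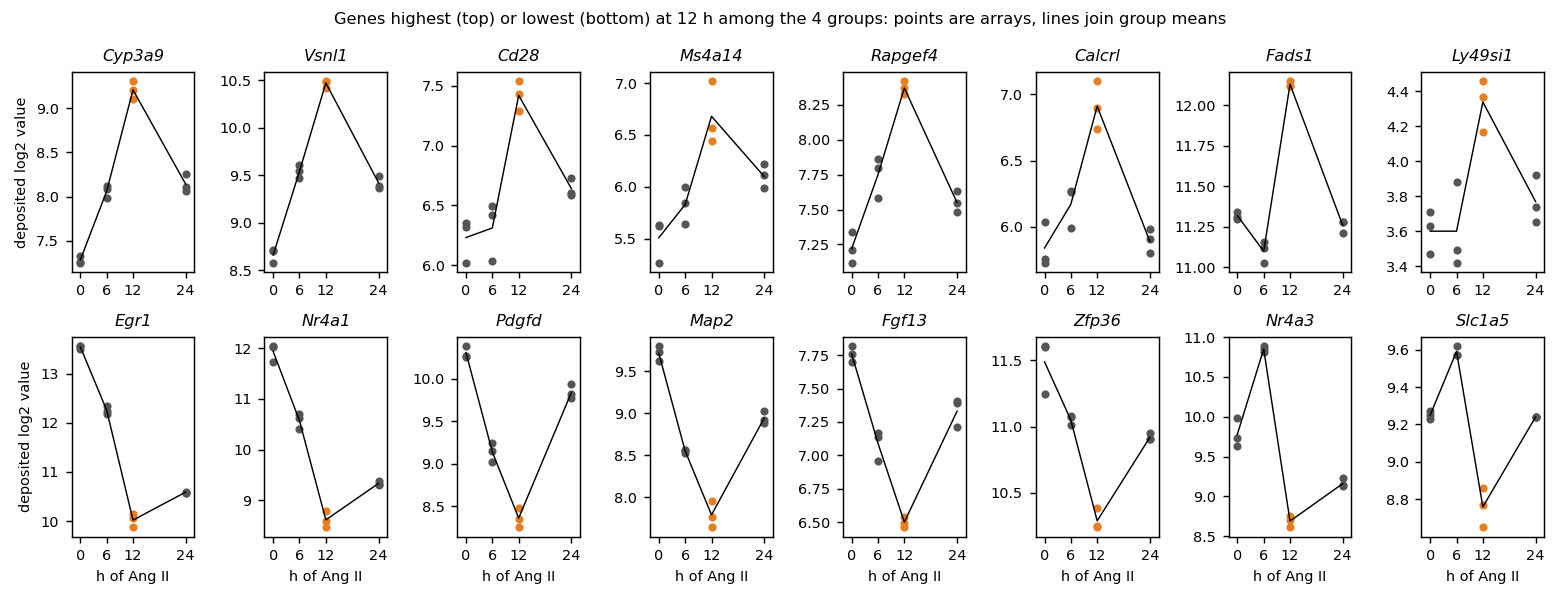
Deposited log2 values of single arrays (points, 12 h in orange) against hours of Ang II, with 0 h for untreated cells and lines joining group means, for the 8 genes of widest margin that were highest at 12 h (top) and lowest at 12 h (bottom). Vertical axes differ between genes. Cyp3a9 reaches 9.11 to 9.31 at 12 h, and Egr1 drops to 9.87 to 10.14.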

How the data were processed

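The values are deposited log2 expression values, made by the authors with RMA in Partek per the submitters' processing notes. Their versions and the genome build are not given in the sources drawn on here, and the log2 scale was read from the values (2.25 to 14.6). RMA usually makes the arrays' distributions alike, which can hide a global shift. Of 29214 probe sets, 15310 had 1 symbol, 323 several and 13581 none, and 319 repeated another row's values. Each of 14506 genes was represented by its brightest probe set, by the mean of the 12 arrays (527 had several). Names were updated through RefSeq (GRCr8) by gene identifier for 14481 genes and by accession for 5, and 20 kept the platform's symbol.

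All 12 arrays entered 1 limma 3.58.1 model in R 4.3.3 (4 groups, 8 residual and 3.37 prior degrees of freedom), with Benjamini-Hochberg adjustment over all genes and a threshold of 0.05. The array number limits the precision. Python 3.11.15, pandas 2.3.3 and matplotlib 3.10.9 made counts and figures. Named genes were the 15 largest rises and falls with wholly separated arrays, per list up to 6 passing genes by size and 2 non-passing genes by level, the 3 receptors, and up to 8 genes highest or lowest at 12 h. From these a part is printed. The comparison, and the 53 lists with 1762 of 1976 entries measured, were chosen with earlier results of these data known. The fit was tested on simulated data. Alternatives covered normalization, filtering, variance model, probe set rule, array weights, the replicate block, a fit of only the 6 arrays and each array left out.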

Additional observations from a re-analysis of the deposited data

Results flagged for a closer look

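For 35 of the named genes the change against untreated cells at 12 h passed in one direction and that at 6 h or 24 h passed in the other, and the difference between the times passed as well in limma's fit. The values are 12 h minus the other time on the log2 scale, and both comparisons share the 3 untreated arrays.

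Against 24 h, the amino acid transporter gene Slc7a8 stood furthest apart at 3.20. Lipid synthesis genes were higher at 12 h, with Acat2 at 0.95, Mvd at 0.94, Idi1 at 0.85 and the phosphatidate phosphatase gene Lpin1 at 0.73. The guidance receptor gene Robo1 (1.42), the redox gene Nqo1 (1.16), the FoxO target gene Depp1 (1.13), Creld2 (0.80), the syndecan gene Sdc4 (0.78), the replication genes Cdc6 (0.73) and Mcm5 (0.71), the vesicle gene Rab3b (0.68), Prcp (0.49) and Srp9 (0.35) were also higher. Clock genes divided, with Bmal1 at 1.41 and Dbp at −1.34, Per2 at −0.97 and Nr1d2 at −0.96. The calcium channel gene Cacna1c (−1.30), the smooth muscle myosin gene Myh11 (−0.61), the mineralocorticoid receptor gene Nr3c2 (−0.83) and the endothelial factor gene Erg (−0.93) were lower at 12 h. Calls at 12 h against untreated cells were lost under 4 of the alternatives for Erg (adjusted p = 0.0222, at most 0.0843), 7 for Mcm5 (0.0388, at most 0.137) and 7 for Srp9 (0.04, at most 0.118).

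Against 6 h, signalling genes were lower at 12 h, with Nr4a3 at −2.16, Plk3 at −2.06, Dusp5 at −2.05, Errfi1 at −1.09 and Spry4 at −0.91. Amino acid transporter genes followed, with Slc7a11 at −1.23, Slc7a5 at −0.98 and Slc1a5 at −0.82, and so did the nucleolar genes Nop56 at −0.84 and Gnl3 at −0.79. The desaturase gene Fads1 (1.03), Lpin1 (0.55) and the leiomodin gene Lmod1 (0.48) were higher at 12 h than at 6 h.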

How the results depend on the processing

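The counts of genes higher, lower, at least 1.5-fold changed, and highest or lowest at 12 h stayed within 1.5 times the main count under each alternative run, 15 for the first 4 counts and 14 for genes highest or lowest at 12 h, which need all groups. Leaving out each array gave 1536 to 1794 higher and 1552 to 1727 lower genes, against 1932 and 1923, and the other alternatives gave 1810 to 2232 and 1819 to 2174. With the replicate block, 1864 genes were higher, 1867 lower, 224 highest and 190 lowest at 12 h. Deviations from the group means of same-numbered arrays correlated at 0.052, 0.034 and 0.052, so the numbers were not taken to pair the arrays, although each of the 6 arrays correlated best with its own number, a hint from the data and not the design. Of the 310 named genes that passed, 295 did so under every alternative that tested them (250 of the 310 were tested among genes above the median level), 15 lost the call under 1 or more, and 0 passed in the opposite direction. Of 1590 counts over lists, 103 moved by more than 1.5 times. Among genes above the median level, lower vasoactive genes were 5, higher plasminogen genes 8, higher interferon genes 7 and lower Wnt genes 11. That run tested 7253 genes, and list members below the median level were not counted in it. All 3063 main calls among the tested genes kept their direction, so these smaller counts come from members left out. With a trended robust variance the higher angiotensin system genes were 5 and the higher translocon and vesicle coat genes 11. The cause of the other moved counts was not tested. The 3 arrays per group limit how small a change can be called.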

Other observations

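Genes outside the lists and the 30 leading genes, picked after their values were seen, included several enzymes of small-molecule metabolism that fell. Enzymes of this kind were not counted in either direction, and some rose, such as Ptgr1 (0.84) and Aldh9a1 (0.60). The cysteine dioxygenase gene Cdo1, at 12.26, 12.25 and 12.14 in untreated cells and 10.17, 10.44 and 10.66 at 12 h, fell by 1.79 ± 0.10 on the log2 scale. Fmo2, a flavin monooxygenase gene (−1.63 ± 0.09), Akr1c14, an aldo-keto reductase gene (−1.43 ± 0.14), the aspartoacylase gene Aspa (−1.38 ± 0.10) and the alcohol dehydrogenase gene Adh1c (−1.31 ± 0.04) fell as well. Among the rises, Nes, the gene of the intermediate filament nestin, was at 6.91, 7.05 and 6.88 in untreated cells and 8.57, 8.59 and 8.52 at 12 h (1.62 ± 0.08), and Itgb1bp2, the gene of the muscle integrin-binding protein melusin, was at 7.54, 7.41 and 7.37 in untreated cells and 9.01, 8.99 and 9.16 at 12 h (1.61 ± 0.07). The receptor gene Gfra1 (1.59 ± 0.06), the actin-bundling gene Lcp1 (1.53 ± 0.08), the phosphoinositide phosphatase gene Inpp4b (1.48 ± 0.07) and the calcium-activated chloride channel gene Ano1 (1.24 ± 0.05) rose. Ano1 had group means of 8.61 untreated, 9.69 at 6 h, 9.85 at 12 h and 8.66 at 24 h, and Nes of 6.95 untreated, 9.10 at 6 h, 8.56 at 12 h and 7.05 at 24 h.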
